A study of Mus musculus with 2 samples.

Results

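The genes described here carry, release or report signals of the TGF-beta family. They are the 3 TGF-beta ligand genes Tgfb1, Tgfb2 and Tgfb3, the activin subunit gene Inhba, the integrin gene Itgb8, the targets Tgfbi and Pmepa1, and the ID genes Id1, Id2 and Id3. They were taken by symbol from both count tables, and all 10 were found among 56941 genes. Tumours grew under the skin of C57BL/6 mice from a pool of MC38, a mouse tumour line labelled as colon adenocarcinoma cells of genotype WT, which carried a lentiviral SPP1 construct (SPP1 is osteopontin, a secreted matrix protein) in the group labelled SPP1 and a control construct in the group labelled vector. From day 7, mice of either group were given anti-PD-1, which blocks a brake on T cells, in doses of 10 mg/kg with 2 doses a week over 2 weeks. Sequencing was of 1 tumour, from 1 mouse, in each group, as 1 library of single cells. There is thus no replicate, no test across animals was possible, and every difference below is between 2 libraries. All intervals are at 95% and describe counting error alone.

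TGF-beta is secreted in a latent form, wrapped in its own propeptide, and has to be released before it can bind its receptors. The integrin made of ITGAV and ITGB8 is one of the proteins that release it. TGF-beta and activin A, a dimer of INHBA, signal through SMAD2 and SMAD3, which induce genes such as Tgfbi, Pmepa1 and Smad7. Bone morphogenetic proteins (BMPs) signal through SMAD1, SMAD5 and SMAD9 and are known for inducing the ID genes. ID proteins have no DNA-binding part of their own and hold E proteins, a group of transcription factors, off DNA. Id2 is also known as a factor that innate lymphoid cells, NK cells and T cells need.

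Sequences upstream of the start were found for 7 of the 10 genes in the RefSeq promoter table of build GRCm38.p6. Those of Id3, Inhba and Itgb8 are shown because these 3 genes differed most between the libraries in the results that follow. Each is the 250 bases before the gene's start, read 5′ to 3′ on the gene's strand, at chr4:136143572-136143821 on the plus strand for Id3, chr13:16011601-16011850 on the plus strand for Inhba and chr12:119238277-119238526 on the minus strand for Itgb8. Capitals mark GTCT and its reverse complement AGAC, the short box that SMAD3 and SMAD4 bind.
Id3: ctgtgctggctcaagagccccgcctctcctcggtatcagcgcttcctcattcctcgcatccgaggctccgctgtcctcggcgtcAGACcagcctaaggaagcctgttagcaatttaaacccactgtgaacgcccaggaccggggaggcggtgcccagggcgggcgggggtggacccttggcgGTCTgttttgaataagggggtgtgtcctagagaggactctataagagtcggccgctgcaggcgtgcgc
Inhba: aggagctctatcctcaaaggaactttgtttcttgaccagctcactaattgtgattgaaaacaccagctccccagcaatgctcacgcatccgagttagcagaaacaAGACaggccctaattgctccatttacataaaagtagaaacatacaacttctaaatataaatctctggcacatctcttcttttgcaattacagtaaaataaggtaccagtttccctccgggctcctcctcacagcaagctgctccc
Itgb8: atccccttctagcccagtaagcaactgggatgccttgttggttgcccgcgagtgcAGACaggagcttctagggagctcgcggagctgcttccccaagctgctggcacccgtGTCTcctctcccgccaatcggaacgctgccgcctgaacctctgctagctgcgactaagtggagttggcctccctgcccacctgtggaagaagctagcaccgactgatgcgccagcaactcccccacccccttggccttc
Id3 and Itgb8 each held 2 such boxes and Inhba held 1. Of 32851 promoters of this length, 82.9% held at least 1 and the median number was 2, so these counts are common ones. The palindrome GTCTAGAC, searched on both strands and holding both boxes, was in none of the 7 and in 0.167% of all promoters. The GC-rich SMAD element GGCGCC was found in Id2 and Tgfbi among the 7 genes and in 9.59% of all promoters. The AP-1 element TGANTCA was in none of the 7 and in 6.75% of all promoters. A match of letters is a description and does not show a binding site. By base content, the Inhba sequence stood apart from the other two, with 43.2% G and C against 62.8% in Id3 and 62.4% in Itgb8.

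The library labelled vector held 14317 barcodes and 164247003 unique molecular identifiers (UMIs, each a counted RNA molecule), with a median of 10277 per barcode, and the library labelled SPP1 held 14029, 164599332 and 10218. Filters and removal of predicted doublets left 13957 and 13615 cells, and 93 barcode sequences occurred in both libraries. Levels are given in CPM, a gene's UMIs relative to all UMIs of a class. As a check of the labels, Spp1 over all kept cells was at 283 and 250 CPM in the libraries labelled vector and SPP1, the order kept throughout, and so was not higher in the latter over all cells or in the largest class (134 and 127 CPM), and the species of the transgene is not given in the sources used here. That class of 10236 and 10213 cells, called the compartment below, was high in Hmga2 (843 and 843 CPM) and Sox9 (830 and 866 CPM), while Krt8, Krt18, Krt19, Epcam and Cdh1 together stood at 2.00 and 1.82 CPM. Its clusters passed no marker list of a cell type. Each cluster was scored against all other kept cells, mostly of the compartment itself, so a list even across it could hardly pass. Those epithelial genes did not bear out the label of adenocarcinoma cells. The keratin gene Krt14, which is outside them, had 19733 and 10872 UMIs in the compartment. The compartment is therefore given no cell type name. Named from their markers were 917 and 733 macrophage/monocyte-like, 187 and 119 T and NK-like, 45 and 27 dendritic-like, 39 and 38 fibroblast-like and 17 and 17 endothelial-like cells, beside 2212 and 2166 low-UMI and 304 and 302 mixed cells. Free or carried RNA was visible: the 6 marker genes of the compartment reached 3.54% and 4.03% of their compartment level in macrophage/monocyte-like cells and 5.58% and 5.32% in T and NK-like cells.

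Tgfb1, the TGF-beta ligand best known from immune cells and platelets, was lowest per UMI in the compartment in both libraries. There it stood at 25.3 CPM (24.5 to 26.1) and 23.7 CPM (22.9 to 24.5). T and NK-like cells were at 157 CPM (130 to 188) and 141 CPM (110 to 176). Macrophage/monocyte-like cells were at 102 CPM (94.4 to 110) and 101 CPM (92.4 to 110), and the fibroblast-like, endothelial-like and dendritic-like classes lay between 72.4 and 117 CPM. T and NK-like cells were thus highest in both libraries, but their intervals overlapped those of endothelial-like cells. In the library labelled SPP1 they also overlapped those of fibroblast-like and dendritic-like cells. The 4 classes between T and NK-like cells and the compartment could not be ordered. Since the compartment held 90.9% and 91.1% of all UMIs, it still gave 77.1% (75.8 to 78.2) and 78.5% (77.3 to 79.7) of the Tgfb1 UMIs. Macrophage/monocyte-like cells gave 14.8% and 12.5%, which is above their 4.34% and 3.40% of all UMIs.

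Tgfb2 and Tgfb3, ligands known from mesenchymal tissue, were highest in the few fibroblast-like cells. Tgfb2 was at 121 CPM (91.7 to 158) and 106 CPM (76.3 to 144) there, with 55.4% and 63.4% of those UMIs in the 3 highest cells of each library. In the compartment Tgfb2 was at 6.24 and 5.33 CPM, and in macrophage/monocyte-like cells at 0.585 and 0.939 CPM. No Tgfb2 UMI was found in T and NK-like cells, which allows up to 3.95 and 5.70 CPM (3 counts), nor in dendritic-like cells, which allows up to 9.72 and 15.5 CPM. Tgfb3 was at 69.4 CPM (47.4 to 97.9) and 127 CPM (94.0 to 168) in fibroblast-like cells, 18.7 and 18.6 CPM in macrophage/monocyte-like cells and 15.1 and 17.5 CPM in the compartment. Tgfb3 levels in these last classes were thus close, and their intervals overlapped. The compartment gave 89.2% and 88.1% of Tgfb2 UMIs and 89.4% and 88.8% of Tgfb3 UMIs, near its share of all UMIs.

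Inhba, which encodes the subunit of activin A, was highest in the compartment. It stood at 197 CPM (194 to 199) and 329 CPM (326 to 332), from 28211 and 46822 UMIs. Macrophage/monocyte-like cells were at 68.1 CPM (62.1 to 74.6) and 55.2 CPM (49.1 to 61.9), which is well above the carry-over share of compartment markers in them. T and NK-like cells were at 13.2 and 9.50 CPM from 10 and 5 UMIs. As a share of the compartment level, these values lay within the range of the single compartment markers in them. The part of carried RNA in these few UMIs was not tested. The compartment gave 94.8% and 94.7% of all Inhba UMIs. Fibroblast-like cells held 25 and 70 Inhba UMIs, or 54.2 CPM (35.1 to 80.0) and 182 CPM (142 to 229), with 48.0% and 41.4% of them in the 3 highest cells. Compartment markers in these fibroblast-like cells summed to 24.2% and 14.2% of the compartment level. Single markers ran from 2.83% to 163% and from 2.46% to 102%, so the sum does not measure carried RNA alone. The part of carried RNA in the Inhba value was not tested.

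Itgb8 was marked by regulatory T-like cells, a group of 32 and 12 cells. They held 82 of the 85 and 19 of the 23 Itgb8 UMIs of T and NK-like cells, at 853 CPM (679 to 1059) and 629 CPM (379 to 982). CD8 T-like cells were at 10.6 and 9.45 CPM from 3 and 2 UMIs, and NK-like cells had 0 and 1 UMI. All T and NK-like cells together were at 112 CPM (89.4 to 138) and 43.7 CPM (27.7 to 65.6), and the regulatory T-like cells made up 32 of 187 and 12 of 119 of them. In the compartment Itgb8 was at 8.27 CPM (7.80 to 8.75) and 18.8 CPM (18.1 to 19.5). The number of cells made the compartment the main source all the same, with 88.5% and 93.8% of Itgb8 UMIs against 6.34% and 0.807% in T and NK-like cells. Macrophage/monocyte-like cells held 1 and 8 Itgb8 UMIs.

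The targets differed in where they were found. Tgfbi, a secreted matrix protein induced by TGF-beta, was highest in macrophage/monocyte-like cells at 1370 CPM (1343 to 1398) and 1041 CPM (1014 to 1069). Dendritic-like cells followed at 360 and 393 CPM, then the compartment at 160 CPM (158 to 162) and 183 CPM (181 to 186). The intervals of these 3 neighbours in the order did not overlap. Macrophage/monocyte-like cells gave 27.7% (27.2 to 28.2) and 16.6% (16.2 to 17.0) of Tgfbi UMIs, and the compartment 68.0% and 78.4%. Pmepa1, which encodes a membrane protein that restrains the SMAD signal, was highest in fibroblast-like cells at 880 CPM (796 to 970) and 840 CPM (751 to 937). It was at 331 and 462 CPM in macrophage/monocyte-like cells, 301 and 385 CPM in the compartment, 107 and 98.3 CPM in dendritic-like cells and 76.4 and 64.6 CPM in T and NK-like cells.

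Of the 3 ID genes, Id2 was highest in immune classes, and Id1 and Id3 were highest in endothelial-like cells. Id2 stood at 1617 CPM (1528 to 1710) and 1723 CPM (1613 to 1839) in T and NK-like cells, at 1101 and 920 CPM in dendritic-like cells and at 734 CPM (714 to 754) and 871 CPM (846 to 897) in macrophage/monocyte-like cells. It was 17.9 and 25.7 CPM in the compartment. Macrophage/monocyte-like cells therefore gave 50.9% and 45.3% of the Id2 UMIs, T and NK-like cells 12.5% and 8.87%, and the compartment 26% and 35.8%. Among T and NK-like cells Id2 was at 1577 and 1210 CPM in CD8 T-like, 1735 and 2134 CPM in NK-like and 1041 and 2516 CPM in regulatory T-like cells, and in the last group 39.0% and 73.7% of the UMIs came from 3 cells per library. Id1 was highest in endothelial-like cells at 260 CPM (178 to 367) and 192 CPM (129 to 276), from 32 and 29 UMIs in 17 and 17 cells. The compartment was at 34.5 and 29.5 CPM, and the dendritic-like and fibroblast-like classes, from at most 12 UMIs each, could not be ordered against it. Id3 was at 276 CPM (191 to 386) and 252 CPM (178 to 346) in endothelial-like cells, 117 and 236 CPM in fibroblast-like cells and 48.4 and 82.7 CPM in the compartment. The Id3 intervals of endothelial-like and fibroblast-like cells overlapped in the library labelled SPP1, so their order is not settled. In macrophage/monocyte-like cells Id1 was at 18.3 and 18.6 CPM and Id3 at 13.4 and 14.5 CPM.

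**Figure D1:**
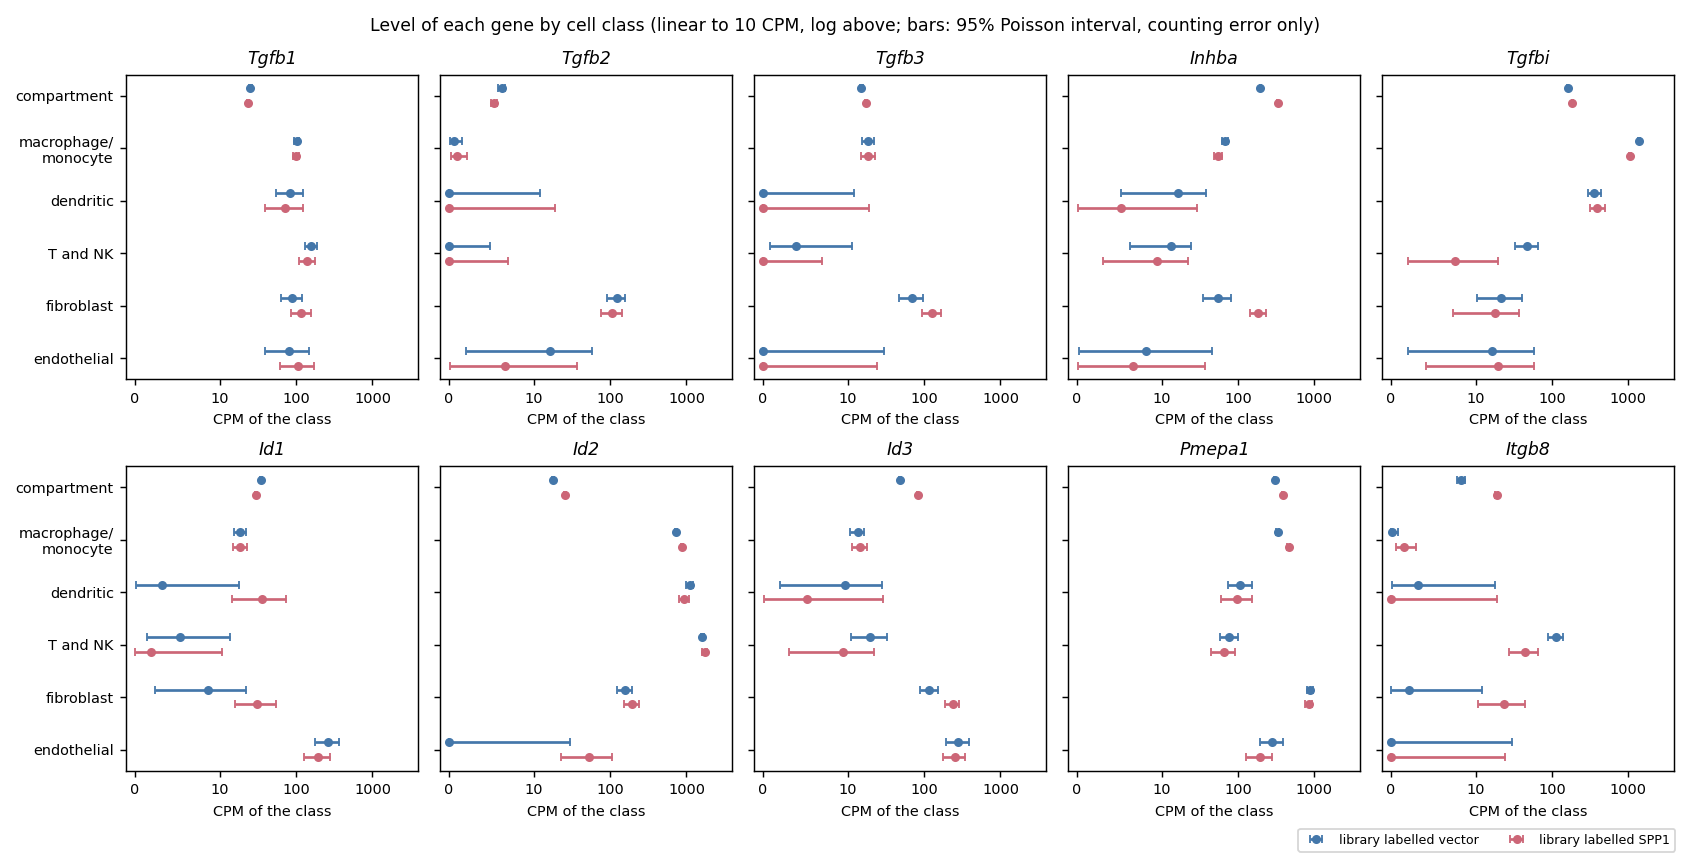
Level of each gene (x axis, CPM of the class, linear to 10 and logarithmic above) in 6 cell classes (y axis), with 1 point per library and bars for the 95% Poisson interval. Inhba is highest in the compartment, Id2 and Itgb8 in T and NK-like cells, Tgfbi in macrophage/monocyte-like cells, and Tgfb2, Tgfb3 and Pmepa1 in fibroblast-like cells, in both libraries.

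Between the libraries, Inhba, Id3 and Itgb8 were higher in the compartment of the library labelled SPP1. A gene was called when the interval of its ratio lay wholly past 1.5-fold, which held for these 3 of the 10 genes on the higher side and for none on the lower side. Of the 15485 genes with at least 100 UMIs in the compartment, 1.73% were called higher and 0.465% lower, 2.2% in all. Itgb8 had a log2 ratio of 1.18 (1.08 to 1.28), Id3 of 0.77 (0.73 to 0.82) and Inhba of 0.74 (0.72 to 0.76), and 1.05%, 2.87% and 3.18% of all genes had a larger log2 ratio in size. Id2 was next at 0.52 (0.45 to 0.60), then Pmepa1 at 0.35 (0.33 to 0.37), Tgfb3 at 0.21 (0.13 to 0.29) and Tgfbi at 0.19 (0.17 to 0.22). On the lower side Tgfb2 was at -0.23 (-0.37 to -0.09), Id1 at -0.23 (-0.29 to -0.17) and Tgfb1 at -0.10 (-0.16 to -0.03). For scale, genes with 1000 UMIs or more had log2 ratios of 0.115 in size at the median. Id1 and Id3 thus lay on opposite sides of 0.

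The size of these ratios varied with the weight given to a pair of clusters with few cells of the library labelled vector. Cluster 7 held 26 and 1566 cells and counts Id3 among its leading genes, and cluster 11 held 82 and 969 cells and counts Inhba among them. In cluster 7 of the library labelled SPP1, Id3 was at 254 CPM, Pmepa1 at 695 CPM and Itgb8 at 41.4 CPM, and in cluster 11 Inhba was at 632 CPM. Without both clusters, a setting chosen from earlier results of these data, the log2 ratio was 0.87 (0.77 to 0.98) for Itgb8, 0.52 (0.49 to 0.54) for Inhba and 0.34 (0.29 to 0.39) for Id3, so that Itgb8 alone of the 10 genes was called. The share of all genes called in that setting was not computed. Both clusters were also left out of a mean of the ratios of the 12 other clusters, each with equal weight, and there Inhba at 0.62, Id3 at 0.70 and Itgb8 at 0.73 were all past 1.5-fold, with no interval. With the UMIs of the other clusters summed instead, Pmepa1 was at 0.12 (0.10 to 0.14) and Tgfb3 at 0.02 (-0.07 to 0.12). In that same setting Id2 was at 0.54 (0.46 to 0.61) and Tgfb2 at -0.41 (-0.57 to -0.25). With equal weight for clusters, Pmepa1 was at 0.22, Tgfb3 at 0.20, Id2 at 0.32 and Tgfb2 at -0.34. Whether such a cluster stands for the transgene, the mouse or the injected cell pool cannot be told apart with 1 tumour per group.

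**Figure D2:**
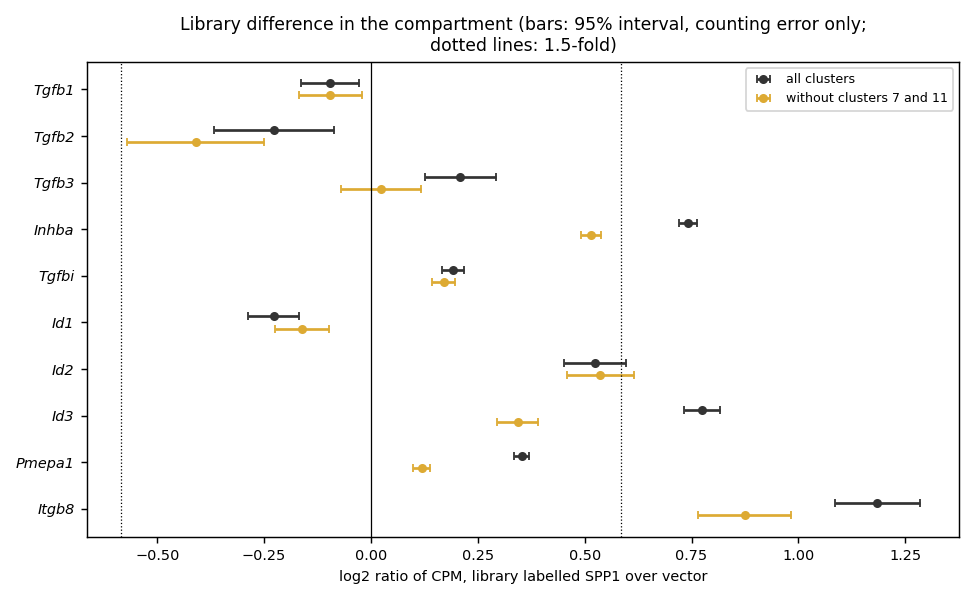
Log2 ratio of CPM in the compartment, library labelled SPP1 over vector (x axis), for each of the 10 genes (y axis), over all clusters and without clusters 7 and 11, with 95% intervals for counting error and dotted lines at 1.5-fold. Inhba moves from 0.74 to 0.52 and Id3 from 0.77 to 0.34 without these clusters, while Itgb8 stays past the line at 0.87 and Id2 is at 0.52 and 0.54.

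Within single clusters the same genes still differed. The compartment had 12 clusters with at least 100 cells of each library. The interval of the Inhba ratio lay above 0 in 11 of them, with log2 ratios from -0.04 in cluster 8 to 1.06 in cluster 17, and past 1.5-fold in 6, which 0.265% of the 15485 genes reached. For Id3 it lay above 0 in 11 of 12, with log2 ratios from 0.17 in cluster 2 to 1.24 in cluster 0, and past 1.5-fold in 4, which 0.51% of genes reached. An interval above 0 in at least 11 clusters was found for 1.07% of these genes. Of the 15485 genes, 10792 had 1000 UMIs or more in the compartment. A gene with few UMIs per cluster can hardly reach such counts, so these shares depend on depth as well. Itgb8 was less even: its interval lay above 0 in 7 clusters and past 1.5-fold in 3, a count that 0.84% of genes reached, and its log2 ratio ran from -0.41 in cluster 4 to 2.34 in cluster 13. Id2 had an interval above 0 in 7 clusters, a count that 4.64% of all genes reached, and past 1.5-fold in none. Id1 had intervals above 0 in 2 clusters and below 0 in 3. Tgfb1 had 1 of each, and Tgfb2 had 4 below 0 and none above. Its interval lay past 1.5-fold lower in cluster 6 (-1.35, -2.06 to -0.70), and such an interval in at least 1 cluster was found for 2.76% of genes. Pmepa1 had 8 intervals above 0 and 4 below, so its higher class value did not hold in every cluster.

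The clusters differed more in Id3 than the libraries did. In cluster 2, led by the matrix genes Aspn and Ogn and by the immediate early gene Fosb, Id3 was at 208 and 235 CPM and Id1 at 98.1 and 78.3 CPM, while cluster 16, led by histone and DNA replication genes, had 8.26 and 11.1 CPM of Id3 and 11.4 and 11.8 CPM of Id1. Id2 followed another order and was highest in cluster 13, led by heat shock genes and Gdf15, at 64.4 and 72.2 CPM. Inhba was highest in cluster 11 in both libraries and, among clusters with at least 100 cells of each library, in cluster 3, led by histone and mitotic genes, at 284 and 467 CPM. These are descriptions, since the clusters were formed on the expression of all genes.

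**Figure D3:**
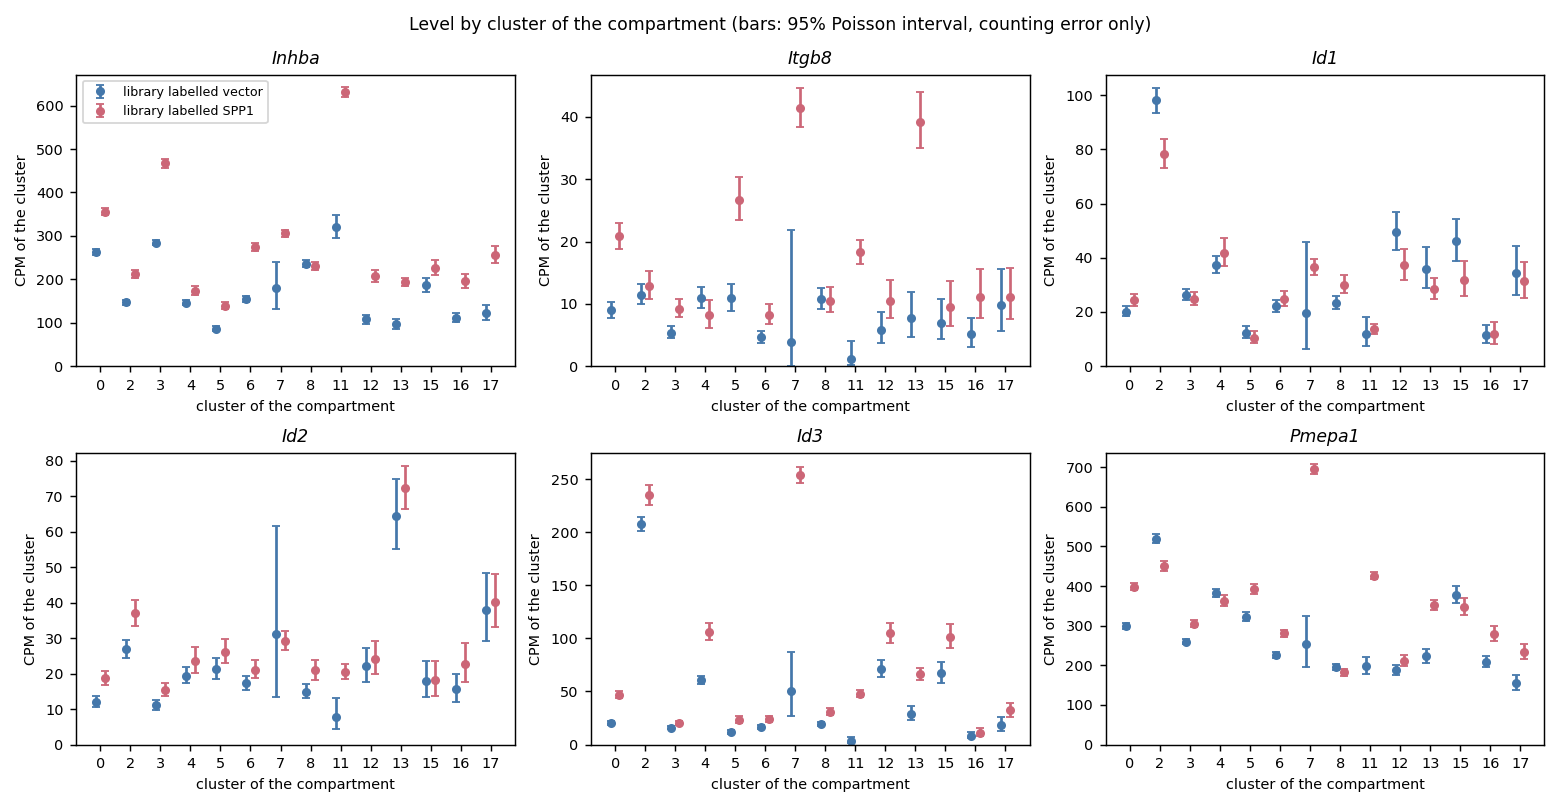
Level (y axis, CPM of the cluster) of 6 genes in the 14 clusters of the compartment (x axis), 1 point per library, with 95% Poisson intervals. Id3 stands at 208 and 235 CPM in cluster 2 and 254 CPM in cluster 7 of the library labelled SPP1, and Inhba at 632 CPM in cluster 11, where few cells came from the library labelled vector.

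Macrophage/monocyte-like cells showed other differences, and none was called. Of the 10 genes, 8 had at least 100 UMIs there, and none of their intervals lay wholly past 1.5-fold on either side. Among all 8492 genes with as many UMIs, 0.577% were called. Tgfbi, at a log2 ratio of -0.40 (-0.44 to -0.35), was lower. Pmepa1 was higher at 0.48 (0.40 to 0.56), from 2265 and 2459 UMIs, and Id2 at 0.25 (0.19 to 0.31). Inhba was at -0.30 (-0.52 to -0.09), with 20.8% and 17.0% of its UMIs in the 3 highest cells. The class was made up differently in the libraries: of its 8 subclusters, the one led by Clec7a, Il1b and Arg1 held 220 and 110 cells and the one led by F13a1, Pf4 and Mrc1 held 74 and 156. Within subclusters, a comparison added after seeing the data, the interval of Tgfbi lay below 0 in 4 and above 0 in 0, that of Pmepa1 above 0 in 6 and below 0 in 0, and that of Id2 above 0 in 5 and below 0 in 1. For Inhba it lay below 0 in 0 and above 0 in 1 (0.73, 0.18 to 1.28), so the lower class value was not seen within any subcluster beyond counting error. The share of all genes that reach such counts over the subclusters was not computed, so how common they are is not known. The intervals of Tgfb1, Tgfb3, Id1 and Id3 held 0, and Tgfb2 and Itgb8 had too few UMIs for a ratio.

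In T and NK-like cells, 3 of the genes had at least 100 UMIs. Itgb8 was called lower, at a log2 ratio of -1.36 (-2.09 to -0.68) from 85 and 23 UMIs, of which 34.1% and 60.9% lay in the 3 highest cells of each library. Of 2402 genes with as many UMIs in this class, 0.624% were called lower and 1.17% either way. Within the regulatory T-like cells, which carry most of this Itgb8, the interval of -0.44 (-1.24 to 0.29) held 0. Tgfb1, at -0.16 (-0.60 to 0.27), and Id2, at 0.09 (-0.03 to 0.22), had intervals that held 0. The Id2 value joined subsets that differed, at -0.38 (-0.61 to -0.16) in CD8 T-like, 0.30 (0.10 to 0.50) in NK-like and 1.27 (0.82 to 1.72) in regulatory T-like cells, the last from 100 and 76 UMIs with most of the latter in 3 cells. The direction for Itgb8 was thus the opposite of that in the compartment.

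Per cell, few pairs of the genes had a correlation away from 0. Compartment cells were thinned to 5000 UMIs each, which left out 675 and 633 shallower cells and kept 9561 and 9580, and Pearson's r was taken on log(1 + count). These correlations are descriptions over cells of 1 library each, which share its depth and preparation. The counts are sparse, with a Tgfb2 UMI in 3.07% and 2.36% and an Itgb8 UMI in 4.12% and 8.75% of these cells. Lower depth lowers r, so a value near 0 does not show that a pair varied independently. Of 45 gene pairs, 42 lay within 0.1 of 0 in both libraries and 2 lay above 0.1 in both. Id1 and Id3 were at 0.27 and 0.21, and Id3 and Pmepa1 at 0.17 and 0.19. An Id1 UMI was found in 29.3% (26.9 to 31.7) of thinned cells with an Id3 UMI and in 11% (10.3 to 11.7) of those without in the library labelled vector, and in 20.2% (18.5 to 21.9) and 8.86% (8.22 to 9.54) in the library labelled SPP1. Part of this followed the clusters, since the mean r of Id1 and Id3 within clusters was 0.14 and 0.17. For Id3 and Pmepa1 the mean r within clusters was 0.06 and 0.09, which is within 0.1 of 0. The r of Inhba with the ID genes and with Pmepa1 was between -0.03 and 0.07. An Inhba UMI was found in 43.4% and 56.2% of thinned cells with an Id3 UMI and in 43.4% and 58.0% of those without.

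**Figure D4:**
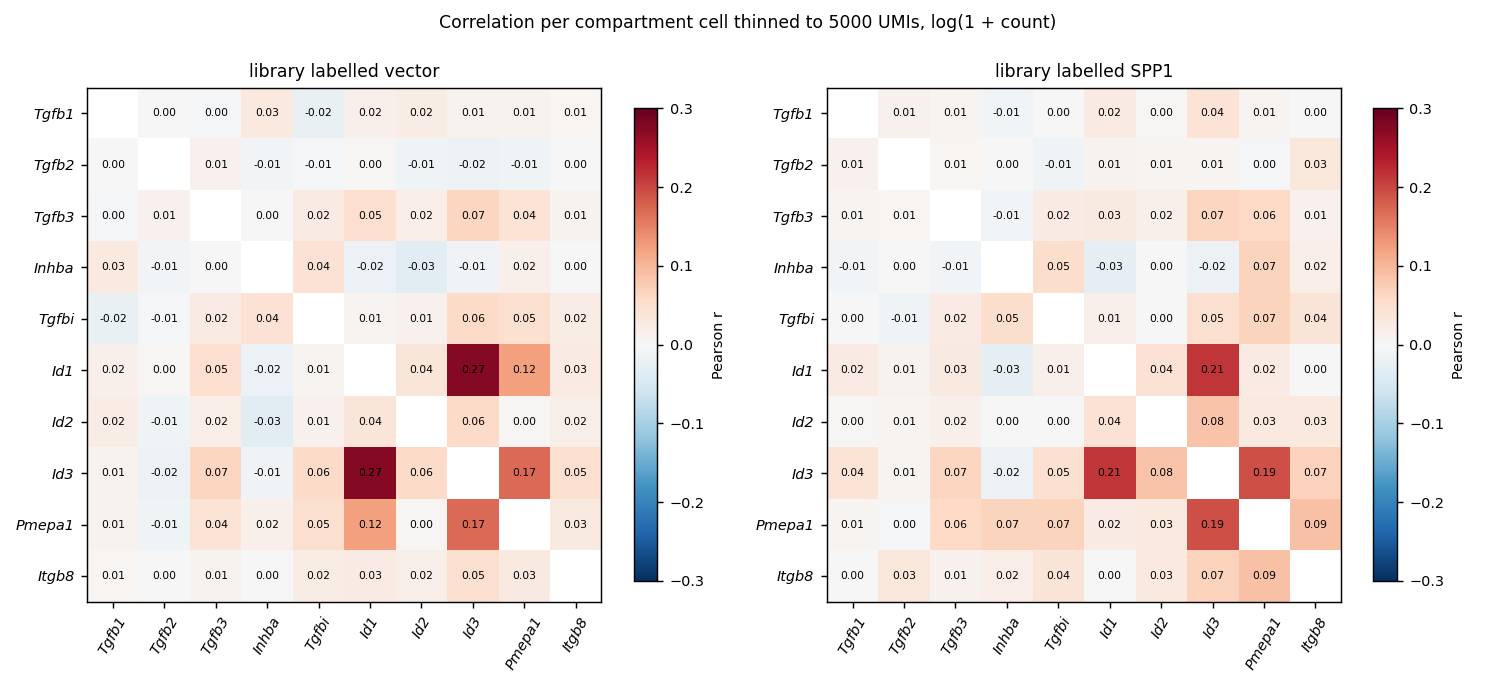
Pearson's r of each pair of the 10 genes over compartment cells thinned to 5000 UMIs, 1 panel per library, with r written in each cell of the map. Id1 with Id3 (0.27 and 0.21) and Id3 with Pmepa1 (0.17 and 0.19) stand out in both panels, and 42 of 45 pairs lie within 0.1 of 0 in both. Within clusters, not shown here, the mean r of Id3 and Pmepa1 was 0.06 and 0.09.

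Of 6282 genes detected in at least 10% of thinned cells of each library, 6021 were compared, without mitochondrial, ribosomal, haemoglobin and clone-named genes. Among them those most like Id3 were immediate early genes, which cells induce within minutes of a stimulus, tissue dissociation included. They were Fos (r of 0.35 and 0.36), Zfp36 (0.33 and 0.32), Junb (0.32 and 0.36), Fosb (0.32 and 0.33) and Btg2 (0.36 and 0.32). For Id1 they were Id3, then Fos (0.24 and 0.17), Fosb (0.23 and 0.16), Junb (0.20 and 0.16) and Ier2 (0.19 and 0.14). The genes most like Inhba were others: the chromatin protein gene Hmga2 (0.19 and 0.25), the osteopontin receptor gene Cd44 (0.15 and 0.19), Tpm1, Ccnd1 and Ank, at 0.13 to 0.22. Fos, Fosb, Junb, Ier2 and Zfp36 together made 4261 and 4060 CPM of the compartment, 14371 and 11700 CPM in cluster 2 and 705 and 662 CPM in cluster 16.

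Because Id3 and these genes varied together, its library difference was taken again in cells split at the median of 13 summed UMIs of these 5 genes, a split chosen after seeing the data. Thinned cells above the median had 110 and 174 CPM of Id3 and 63.4 and 46.7 CPM of Id1. Those at or below it had 13.1 and 29.7 CPM of Id3 and 17.8 and 15.8 CPM of Id1. The log2 ratio of Id3 between the libraries was 0.65 (0.58 to 0.73) above the median and 1.18 (0.99 to 1.38) at or below it. The ratio was thus larger among cells low in immediate early genes, while the gap in CPM was larger among those above the median. The split was not repeated without the clusters that had few cells of the library labelled vector, so their part in these Id3 ratios was not tested. The Inhba ratio was close in both sets of cells, at 0.75 (0.69 to 0.81) and 0.74 (0.69 to 0.79). Above the median Id3 was not called, while Inhba and Itgb8 were. What dissociation adds to the level of Id1 and Id3 was not tested.

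**Figure D5:**
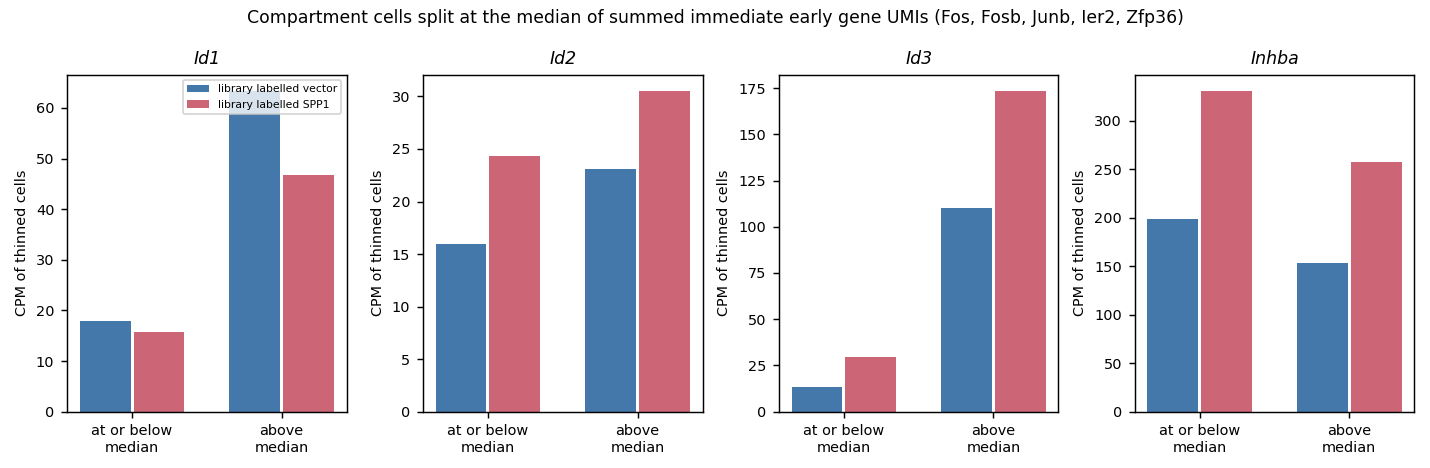
Level (y axis, CPM of thinned compartment cells) of Id1, Id2, Id3 and Inhba in cells at or below and above the median of summed immediate early gene UMIs (x axis), 1 bar per library. Id3 is at 13.1 and 29.7 CPM at or below the median and at 110 and 174 CPM above it, while Inhba is at 199 and 331 CPM and at 153 and 257 CPM.

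Beyond the 10 genes, only Bmp2, Fn1 and Acta2 of the pathway lists were called. The lists held 91 genes with the 10 above among them, of which 75 had at least 20 UMIs in the compartment. Of these, 5 were called higher (Inhba, Itgb8, Id3, Bmp2 and Fn1) and 1 lower (Acta2), beside 2.27% higher and 0.465% lower of 20014 genes. Inhba, Itgb8 and Id3 are among the 10, so the count on the higher side partly repeats the calls given above. Without clusters 7 and 11 the counts were 2 higher and 0 lower, and the share of all genes called in that setting was not computed. An interval above 0 was seen for 26.2% of these genes and below 0 for 24.1%, since deep counts make small differences visible, and the lists are given against that.

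Of 20 ligand genes 10 had enough UMIs, with 6 intervals above 0, 2 below and a median log2 ratio of 0.14, beside 0.01 over all genes. The growth factor gene Gdf15 was at 0.07. Inha and Lefty1, inhibitors of activin and of Nodal signals, were at 0.55 (0.29 to 0.81) and 0.41 (0.24 to 0.58), the latter at 0.15 without clusters 7 and 11. Bmp2, a BMP ligand that was picked out after its values were seen, had 47 UMIs in 24 cells of the library labelled vector and 668 UMIs in 406 cells of the library labelled SPP1, or 0.328 and 4.69 CPM. That is a log2 ratio of 3.84 (3.41 to 4.30), with 40.4% and 71.1% of the UMIs in clusters 7 and 11, and 3.19 (2.61 to 3.82) without them. In macrophage/monocyte-like cells Bmp2 was at 1.75 and 5.45 CPM. Bmp4, which encodes another BMP ligand, had no UMI in the compartment of either library, which allows up to 0.0209 and 0.0211 CPM.

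Of 13 receptor genes 12 were measured, 4 above and 1 below 0, with a median of -0.01. Bmpr2, Bmpr1a and Tgfbr1 lay between -0.02 and 0.05. Tgfbr2, the receptor that binds TGF-beta first, was lower at 93.9 and 67.5 CPM, with a log2 ratio of -0.48 (-0.51 to -0.44) that was -0.48 without clusters 7 and 11 as well. All 12 SMAD genes and regulators were measured, 3 above and 6 below 0, with a median of -0.04. Among them the corepressor genes Ski (-0.01) and Skil (0.05) and the shared SMAD gene Smad4 (-0.03) lay near 0. The inhibitory Smad7 was at 0.16 (0.13 to 0.19), and at 0.04 (0.01 to 0.07) without clusters 7 and 11.

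Of 15 latency and activation genes, 6 lay above and 5 below 0, with a median of 0.01. Itgav, the partner of Itgb8, was at 240 and 245 CPM with a log2 ratio of 0.03 (0.01 to 0.05). Itgb3 and Itgb5, other integrin genes whose products pair with that of Itgav, were lower, at -0.68 (-0.87 to -0.50) and -0.43 (-0.47 to -0.39). Itgb1 was at -0.15, and the latent TGF-beta binding protein genes Ltbp4 and Ltbp1 were at 0.12 and 0.26 (0.09 and 0.07 without clusters 7 and 11). Of 9 antagonist genes 5 were measured, 1 above and 3 below 0. Decorin (Dcn), a matrix proteoglycan that binds TGF-beta, was at 863 and 1120 CPM (0.38), follistatin (Fst), which binds activin, at 13.3 and 10.4 CPM (-0.35, -0.45 to -0.25, and -0.14 without clusters 7 and 11), and Fstl3 and Chrd were at 0.09 and -0.16.

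Of the 16 TGF-beta induced genes all were measured, 8 above and 6 below 0, with a median of 0.04 that turned to -0.09 without clusters 7 and 11. Fn1, fibronectin, was higher at 414 and 698 CPM (0.75, 0.74 to 0.77, and 0.42 without clusters 7 and 11). Col3a1 was at 0.15, which turned to -0.16 without those clusters, and Junb was at 0.20, and 0.09 without them. Acta2, smooth muscle actin, was lower at 11.1 and 6.72 CPM (-0.73, -0.84 to -0.61, and -0.52 without those clusters). Among 10 BMP induced genes 9 were measured, 3 above and 3 below 0, and their median of -0.17 turned to 0.04 without clusters 7 and 11. Id4, the ID gene that is no member of the set, was at 9.03 and 8.75 CPM (-0.04, -0.16 to 0.07). The E protein genes Tcf4, Tcf12 and Tcf3, whose products the ID proteins bind, were at 0.02, -0.10 and -0.11.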

How the data were processed

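Single-cell RNA was measured in 2 libraries, grouped by the labels as vector and SPP1, with 1 mouse each. The deposited values are raw UMI counts per gene and barcode, with no normalization. Per the submitters' processing notes, Cell Ranger 2.1.1 and GRCm39 were used, with the annotation release and cell calling not given in the sources used here.

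Barcodes under 300 genes or 500 UMIs, or above 15% mitochondrial UMIs, were left out, and doublets (286 and 341) were predicted from simulated pairs and removed. Counts scaled to 10000 and logged were reduced to 30 components of 2000 variable genes and clustered with leidenalg 0.10.2 at resolution 1.0, without batch integration (Python 3.11.15, numpy 2.4.6, scipy 1.17.1). Clusters were named from fixed marker lists, needing at least 3 raised markers, 50% of the list and a mean log2 ratio of 2. These last thresholds, the low-UMI class (median under 0.5 of the library's) and the mixed class were taken from earlier work on these data.

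UMIs were summed per class and library and given as CPM with exact Poisson intervals, shares with exact binomial (Clopper-Pearson) intervals, and ratios with exact conditional binomial intervals, all at 95%. They cover counting error only. No test across samples could be made with 1 library per group, and cells were not used as replicates. Ratios needed 100 UMIs over both libraries, or 20 for the lists. The scripts were tested on simulated counts.

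The members and lists were chosen with earlier results of these data known. Named were the 10 genes, up to 4 genes of each list with the most UMIs in the compartment, and the 5 genes most like Id1, Id3 and Inhba. Bmp2, Bmp4, Inha, Lefty1, Tgfbr2, Smad7, Itgb3, Itgb5, Fn1, Acta2, Id4 and Krt14, where outside that rule, were named after their values were seen. Other settings, listed at the end, covered centring, thinning, cell filters, doublets, clustering, single cells and clusters of 1 library.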

Additional observations from a re-analysis of the deposited data

Results flagged for a closer look

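The libraries differed in opposite directions in the compartment and in another class for 3 of the genes, with both intervals away from 0. These differences between classes were not tested, and each rests on 1 library per group. Inhba had a log2 ratio (SPP1 over vector) of 0.74 in the compartment against -0.30 in macrophage/monocyte-like cells, a gap of 1.04. Within the 8 subclusters of the latter class its interval lay below 0 in 0 and above 0 in 1. Tgfbi was at 0.19 in the compartment against -0.40 in macrophage/monocyte-like cells, a gap of 0.59. It was also at -2.64 (-4.59 to -1.16) in T and NK-like cells, a gap of 2.83, from 36 and 4 UMIs of which 75.0% in each library lay in 3 cells. Macrophage markers in those T and NK-like cells were at 1.98% and 0.35% of their macrophage level, and their part in the Tgfbi value was not tested. Itgb8 was at 1.18 in the compartment and -1.36 (-2.09 to -0.68) in T and NK-like cells, a gap of 2.54. Within regulatory T-like cells, which held nearly all Itgb8 UMIs of that class, the log2 ratio was -0.44 (-1.24 to 0.29), and these cells were 32 of 187 and 12 of 119 of the class.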

How the results depend on the processing

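The count of 3 genes called higher in the compartment stayed with Inhba, Id3 and Itgb8 under centring on the median gene, the mean of per-cell CPM, thinning to 5000 UMIs, a stricter cell filter, doublets kept, the 3 highest cells left out, other UMI minimums, resolution 0.5, equal weight for clusters, low-UMI clusters added, barcodes found in both libraries left out, and cells at or below the median of immediate early gene UMIs. The mean of per-cell CPM and the equal weight for clusters give no interval, so there the ratio itself was past 1.5-fold. The equal weight also leaves out clusters 7 and 11. With these left out and the UMIs of the rest summed the count was 1 (Itgb8), so the calls of Inhba and Id3 differ between both ways. Shares of all genes called were computed for the main setting only. Settings added after seeing the data gave 2 in cells above the median of immediate early gene UMIs, and 0 in the 424 and 328 thinned cells without such UMIs, where the intervals of Id3 (0.80 to 2.80) and Itgb8 (1.38 to 3.57) lay past 1.5-fold from under 100 UMIs. No gene was called lower in the compartment, or in macrophage/monocyte-like cells either way, under any setting run. Of 160 other values of single ratios in the compartment, 121 stayed within the counting interval, 39 moved beyond it and 0 reversed a called gene. The sign of the uncalled Id1 ratio, -0.23, turned to 0.02 in cells without immediate early gene UMIs, where Tgfb3, at 0.21, turned to -0.03 and Tgfb1, at -0.10, to 0.01, and Tgfb1 was at 0.07 with equal weight for clusters.

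The r of Id1 and Id3 was 0.21 (Spearman), 0.18 (2000 UMIs) and 0.14 (within clusters) in the library labelled vector, and 0.15 (2000 UMIs) and 0.29 (not thinned) in the other. That of Id3 and Pmepa1 was 0.096 and 0.117 at 2000 UMIs and 0.06 and 0.09 within clusters. In cells thinned to 1000 UMIs, which gives every cell the same weight, the compartment's share was 58.7% and 60.9% for Tgfb1 and 78.8% and 79.6% for Inhba. List genes called were 2 higher and 0 lower without clusters of 1 library. No paired analysis was possible because each group has 1 library. Classes under 50 cells and genes under 100 UMIs allow wide intervals, and no setting stands in for a second animal.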
